A study of Mus musculus with 22 samples.

Results

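Axon guidance ligands and receptors were measured in RNA from a ribosome pulldown aimed at mouse outer hair cells and in RNA of the whole cochlea. The 68 genes were all protein-coding members of 12 families, taken by symbol from the 49671 gene identifiers of the tables: class 3, 4, 5 and 6 semaphorins, plexins and neuropilins, A-type and B-type ephrins, EphA and EphB receptors, Slits and Robo receptors, and netrins with the netrin receptors Dcc, Neo1 and Unc5a to Unc5d. Sema7a was left out by the rule, Ntn3 was not analysed here, and 3 non-coding antisense genes whose symbols matched were dropped by biotype. Of the 68 genes, 33 encode ligands and 35 encode receptors or co-receptors. The rule used symbols only and no measured value.

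All mice were PrestinCreERT2/+;RiboTagHA/+, in which an inducible Cre driven by the outer-hair-cell gene prestin (Slc26a5) adds an HA tag to a ribosomal protein. Recombination was induced by tamoxifen, dosed by weight at 3 mg for 40 g in mice under 21 days of age and 9 mg for 40 g from that age on. The immunoprecipitate (IP) was RNA pulled down with ribosomes by an antibody to HA, and the input was total RNA of the whole cochlea with no antibody. IP and input were sampled at P8, P14, P28, 6 weeks and 10 weeks, with 2 libraries per fraction at each age and 3 at 10 weeks, which gave 22 libraries. No library came from mice without Cre or without the tag, so RNA that sticks to the antibody or beads was not measured. Tamoxifen dose and age cannot be told apart.

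Guidance cues bind receptors on the surface of growing axons and migrating cells and steer them by reorganizing the cytoskeleton. Semaphorins act through plexins, with neuropilins as co-receptors for most class 3 members. Ephrins bind Eph receptor tyrosine kinases on neighbouring cells, Slits bind Robo receptors, and netrins bind Dcc, neogenin and Unc5 proteins. In the cochlea these families are known from the patterning of spiral ganglion fibres as they reach the hair cells, and many are also used by blood vessels and connective tissue.

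The libraries held 30757875 to 71023032 reads, of which 14978013 to 39907763 were counted to genes. Reads in no annotated feature made up 20.2% to 47.7% of IP and 11.1% to 20.4% of input libraries, and mitochondrial genes 0.275% to 0.834% of gene reads in IP and 2.28% to 5.15% in input. Their part in the differences between fractions was not tested. Gm42418, a transcript with ribosomal RNA sequence, accounted for 58.3% of the gene reads of P8 input replicate 2 and for 1.22% to 18.6% elsewhere. The deposited CPM were therefore rescaled with TMM factors, and levels below are scaled CPM. The factor was 0.324 for P8 input replicate 2, 0.615 for P14 IP replicate 1 and 0.84 to 1.40 elsewhere. A low factor raises all scaled values of a library. P8 input replicate 2, P14 IP replicate 1 and P28 IP replicate 2 had the fewest genes at 1 CPM or more (9853, 10810 and 10870). Of 10 outer hair cell markers, 8 were higher in IP than in input, among them Ikzf2, a transcription factor of these cells (88.4 ± 34.4 against 15.5 ± 5.92 scaled CPM), and Ocm, their calcium buffer oncomodulin (505 ± 288 against 98.5 ± 51.9; SD, n = 11 each). Slc26a5 itself averaged 23.9 ± 27.5 in IP and 7.36 ± 4.22 in input (limma adjusted p = 0.209). Of the marker lists of other cells, 7 of 10 neuronal, 7 of 8 Schwann cell, 6 of 6 macrophage, 6 of 6 strial, 6 of 8 supporting cell, 4 of 8 fibrocyte and 4 of 7 bone and cartilage genes were lower in IP, and 1 supporting cell gene was higher. The endothelial and pericyte list was split, with 4 of 10 genes higher and 4 lower. The IP libraries still held markers of other cells. Median sums in IP were 773 scaled CPM for outer hair cell, 5795 fibrocyte, 2419 Schwann cell, 1468 supporting cell and 1214 neuronal markers. They were 777 for strial, 664.5 for bone and cartilage, 662 for endothelial and 46.6 for macrophage markers. A level in IP is therefore not a level in outer hair cells alone.

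Across the 5 ages, 26 of the 68 guidance genes (38.2%) were higher in IP than in input and 7 (10.3%) were lower, while 35 did not pass the test. Of all 20195 genes tested, 18.8% were higher and 21.5% were lower. The median log2 change was 0.31 for the 68 genes and 0.00 for all genes. The genes that were higher came mainly from the class 4 and class 6 semaphorins, the A-type ephrins, the plexins and neuropilins and the Unc5 receptors. Those that were lower included 3 of the 7 class 3 semaphorins. Among ligands 14 of 33 were higher and 4 lower, and among receptors 12 of 35 were higher and 3 lower. A call is an adjusted p under 0.05 in limma with Benjamini-Hochberg adjustment over all genes, and changes are on the log2(scaled CPM + 1) scale, which understates those of low genes. In these bulk samples, fewer cells of a type and less RNA per cell cannot be told apart. IP also held RNA pulled down with ribosomes and input held total RNA, and the part of that difference was not tested.

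**Figure D1:**
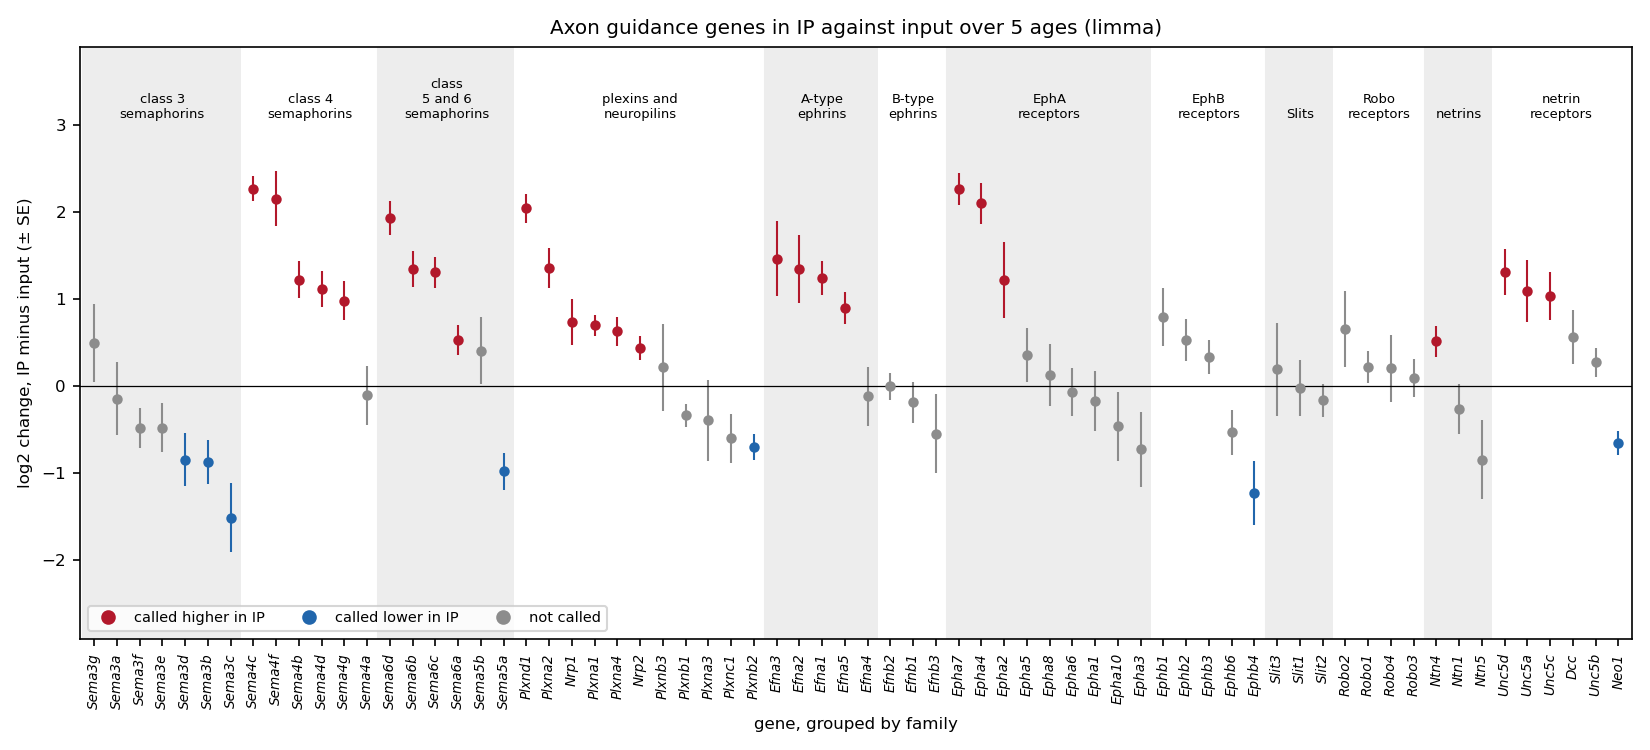
Log2 change of IP minus input over 5 ages (limma, vertical axis) for each of the 68 guidance genes, grouped by family; bars are standard errors and colour marks the call. The class 4 semaphorins and A-type ephrins lie mostly above 0 (5 of 6 and 4 of 5 called higher), and the class 3 semaphorins mostly below it (3 of 7 called lower).

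Class 4 semaphorins are membrane-bound ligands, several of which bind B-type plexins or Plxnd1, and 5 of the 6 were higher in IP. Sema4c (chr1:36548639-36558349, minus strand, GRCm38) had a lowest, median and highest level of 128, 155 and 317 scaled CPM in the 11 IP libraries, against 25.9, 37.8 and 49.0 in the 11 input libraries. Every IP library lay above every input library, at a log2 change of 2.27 ± 0.14 (SE; limma adjusted p = 1.01e-10). Sema4f (chr6:82911885-82939769, minus strand) had 6.47, 34.1 and 98.0 in IP, against 0.314, 5.30 and 15.9 in input. IP exceeded input within each of the 5 ages, though the P8 IP libraries (8.79 and 6.47) and 10-week IP replicate 1 (9.84) lay inside the range of all input libraries, and the log2 change was 2.15 ± 0.32 (limma adjusted p = 8.98e-06). Sema4b, Sema4d and Sema4g, at log2 changes of 1.23, 1.12 and 0.98, were also higher. Sema4a was not called, at 7.78 ± 4.25 scaled CPM in IP and 9.64 ± 8.13 in input (SD, n = 11 each).

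Of the class 6 semaphorins, transmembrane ligands of A-type plexins, all 4 were higher in IP. Sema6d (chr2:124089969-124667770, plus strand) had a lowest, median and highest level of 95.7, 326 and 596 scaled CPM in IP, against 56.1, 83.9 and 144 in input. IP lay above input within every age, the lowest IP value being 10-week replicate 1, and the log2 change was 1.93 ± 0.20 (limma adjusted p = 6.04e-08). Sema6b and Sema6c changed by 1.35 and 1.31 and Sema6a by 0.53. The call of Sema6a was not held in all 30 alternative settings. The class 5 member Sema5a, a transmembrane semaphorin with thrombospondin repeats, went the other way, with 9.57, 34.1 and 63.4 scaled CPM in IP against 39.0, 52.4 and 128 in input. It was the only guidance gene whose IP libraries lay below the input libraries within every age (log2 change -0.98 ± 0.22, limma adjusted p = 0.000878). Sema5b was not called.

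Class 3 semaphorins are secreted and signal through neuropilin and plexin complexes, and none of the 7 was higher in IP. Sema3c had a lowest, median and highest level of 0.0861, 4.75 and 10.8 scaled CPM in IP, against 4.50, 14.9 and 26.3 in input (log2 change -1.51 ± 0.40, limma adjusted p = 0.0041). The ranges overlapped, and the lowest IP value was that of P28 replicate 2. Sema3b had 9.64, 31.5 and 72.4 in IP against 31.1, 57.7 and 73.9 in input (log2 change -0.87 ± 0.25, limma adjusted p = 0.0077). Sema3d had 5.2, 10.8 and 51.4 in IP against 19.4, 26.4 and 74.7 in input (log2 change -0.84 ± 0.31, limma adjusted p = 0.0328). Both overlapped between fractions, and P14 IP replicate 1 was the highest IP library for each. That rank held after rescaling but not in CPM as deposited. The call of Sema3d was held in 16 of 30 alternative settings and was lost with 11 of the 22 single libraries left out, at log2 changes of -0.85 to -0.54. The summed level of the 8 fibrocyte and mesenchyme markers was 2672 to 13289 scaled CPM in IP and 11146 to 33807 in input, and its part in the class 3 values was not tested. Sema3a, Sema3e, Sema3f and Sema3g were not called.

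Plexins are the semaphorin receptors, and neuropilins bind class 3 ligands beside them. Plxnd1 (chr6:115954811-115995005, minus strand), the receptor of Sema3e and of some class 4 members, had a lowest, median and highest level of 208, 617 and 1118 scaled CPM in IP, against 114, 151 and 213 in input. IP exceeded input within every age, with 10-week IP replicate 1 reaching only the top of the input range, and the log2 change was 2.04 ± 0.17 (limma adjusted p = 2.59e-09). Per kilobase of exon it had the highest level of the 68 genes in IP (85.5 scaled CPM per kilobase, against 20.1 in input, where it ranked 3). Plxna2, a receptor of class 6 semaphorins, had 25.1, 55.9 and 160 scaled CPM in IP, against 8.82, 25 and 36.7 in input. Its IP libraries overlapped the input range at one end, in P28 replicate 1, and the log2 change was 1.36 ± 0.23 (limma adjusted p = 4.70e-05). Plxna1, Plxna4, Nrp1 and Nrp2 were higher by 0.70, 0.63, 0.74 and 0.44. At 10 weeks the log2 difference was -0.27 for Nrp1 and -0.10 for Nrp2. The call of Nrp1 was lost in 9 of 30 alternative settings, among them with 7 single libraries left out (P8 IP replicate 2, P14 IP replicate 1, P14 input replicate 2, P28 IP replicate 2, P28 input replicate 2 and replicate 2 of either 6-week fraction), and that of Nrp2 with CPM as deposited. Plxnd1 and Nrp1 are also vascular receptors, and the summed endothelial and pericyte markers were 450 to 1431 scaled CPM in IP and 644 to 998 in input. Their part in these values was not tested.

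Plxnb2, a receptor of class 4 semaphorins, was lower in IP. Its lowest, median and highest levels were 68.5, 105 and 331 scaled CPM in IP, against 149, 188 and 227 in input (log2 change -0.70 ± 0.15, limma adjusted p = 0.000916). All IP libraries lay below all input libraries but for P14 IP replicate 1, which was the highest of the 22. As deposited, without rescaling, Plxnb2 in that library was at 96.5 CPM, below both P14 input libraries (104 and 113). Plxnb2 was the guidance gene with the highest level per kilobase in input (24.2 scaled CPM per kilobase, against 15.9 in IP, where it ranked 12). Plxnb1 changed by -0.33 (limma adjusted p = 0.0533) and was not called, nor were Plxna3, Plxnb3 and Plxnc1.

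**Figure D2:**
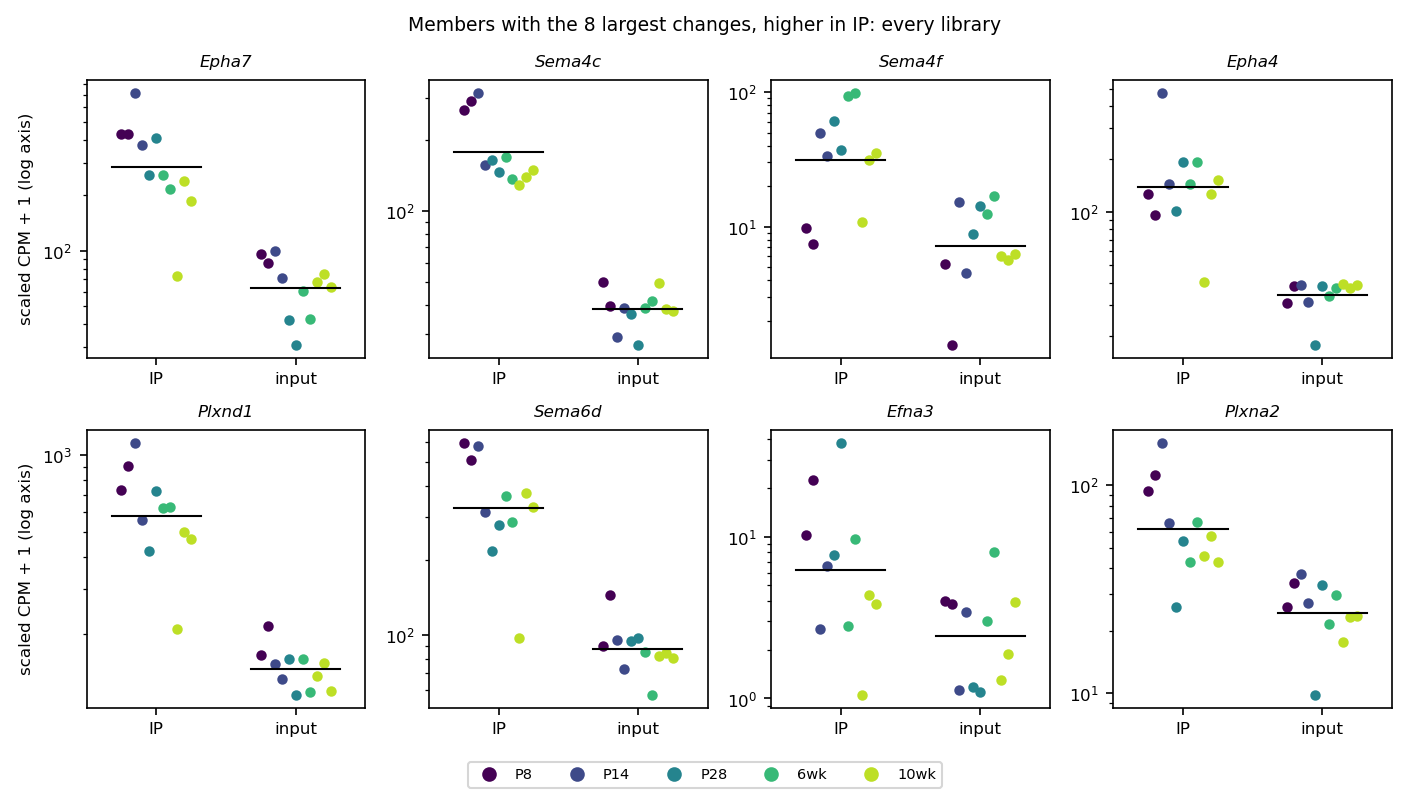
Scaled CPM + 1 on a log axis in every IP and input library for the 8 guidance genes with the largest called increases; points are libraries coloured by age and black bars are means on the log scale. All IP libraries of Sema4c and Epha4 lie above all input libraries, while Efna3 overlaps widely.

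A-type ephrins are ligands held in the membrane by a lipid anchor, and 4 of the 5 were higher in IP. Efna3 had a lowest, median and highest level of 0.0502, 5.61 and 37.2 scaled CPM in IP, against 0.0897, 2.02 and 7.0 in input (log2 change 1.47 ± 0.43, limma adjusted p = 0.00894). The ranges overlapped widely, the highest IP library being P28 replicate 2 and the lowest 10-week replicate 1. Efna1 was higher by 1.24, Efna2 by 1.35 and Efna5 by 0.90, and Efna4 was not called. For Efna2 IP lay above input within 2 of the 5 ages, and its call was not held in all 30 alternative settings. At P8 Efna5 went the other way, with 32 and 31.6 scaled CPM in IP against 45.8 and 46.6 in input. Efna1 had the second highest level per kilobase in IP (44.2 scaled CPM per kilobase, against 17.3 in input).

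None of the B-type ephrins, transmembrane ligands that mainly bind EphB receptors, was called. Efnb2 had 68.9, 88.8 and 220 scaled CPM as its lowest, median and highest IP level, against 84.6, 109 and 179 in input (log2 change 0.00 ± 0.15, limma adjusted p = 0.993).

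EphA receptors bind mainly A-type ephrins, and 3 of the 9 were higher in IP. Epha7 (chr4:28813131-28967499, plus strand) had a lowest, median and highest level of 72.2, 257 and 720 scaled CPM in IP, against 29.8, 66.5 and 98.4 in input. Only 10-week IP replicate 1 lay within the input range, and the log2 change of 2.27 ± 0.18 was the largest of the 68 genes (limma adjusted p = 2.41e-09). Epha4 (chr1:77367185-77515088, minus strand), which can bind ephrins of both types, had 39.4, 142 and 473 scaled CPM in IP, against 16.7, 36.4 and 38.0 in input. Every IP library lay above every input library (log2 change 2.10 ± 0.24, limma adjusted p = 2.79e-07). Epha2 was higher by 1.22, a call that was held in 19 of 30 alternative settings.

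Among the 5 EphB receptors, Ephb4, which binds Efnb2 and is known from veins, was lower in IP. It had a lowest, median and highest level of 0.517, 38.4 and 86.7 scaled CPM in IP, against 51.5, 63.0 and 141 in input (log2 change -1.23 ± 0.37, limma adjusted p = 0.0101). The lowest value was that of P28 IP replicate 2, and without that library the log2 change was -0.74 (limma adjusted p = 0.00182). IP lay below input within 4 of the 5 ages. Ephb1, Ephb2, Ephb3 and Ephb6 were not called.

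No Slit and no Robo receptor was called. Robo1, a receptor of Slits, had a lowest, median and highest level of 38.5, 61.4 and 159 scaled CPM in IP, against 46.4, 58.4 and 81.3 in input (log2 change 0.22 ± 0.18, limma adjusted p = 0.364). Slit3 had 0.0861, 29.2 and 75.2 in IP, against 0.807, 18.9 and 62.2 in input (log2 change 0.19 ± 0.53, limma adjusted p = 0.797). The fractions overlapped for both. Robo3, Epha6, Dcc and Slit1 were the lowest of the 68 genes per kilobase in both fractions. Robo3 had 0 reads in 6 of 11 IP and 9 of 11 input libraries, and at most 60 reads in IP and 109 in input.

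Of the netrins, secreted laminin-related ligands, Ntn4 was higher in IP by 0.52 ± 0.18 (limma adjusted p = 0.0259), and Ntn1 and Ntn5 were not called. At 10 weeks its log2 difference was -0.43, and its call over all ages was lost in 7 of 30 alternative settings, among them CPM as deposited and, left out singly, P14 IP replicate 1, P14 input replicate 2, P28 input replicate 1 and 6-week input replicate 2. Of the netrin receptors, Unc5d, Unc5a and Unc5c were higher by 1.31, 1.10 and 1.03, while Unc5b and Dcc were not called. For Unc5d, Unc5a and Unc5c each, IP lay above input within 3 of the 5 ages. The log2 difference of Unc5d was 3.9 at P28 but -0.01 at P8 and -0.16 at 10 weeks. It was -0.085 for Unc5c at P8 and -0.10 for Unc5a at P14. Neogenin (Neo1), which also binds repulsive guidance molecules, was lower in IP. It had a lowest, median and highest level of 68.2, 91.9 and 135 scaled CPM in IP, against 87.7, 135 and 263 in input (log2 change -0.65 ± 0.14, limma adjusted p = 0.000557). IP lay below input within 4 of the 5 ages.

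**Figure D3:**
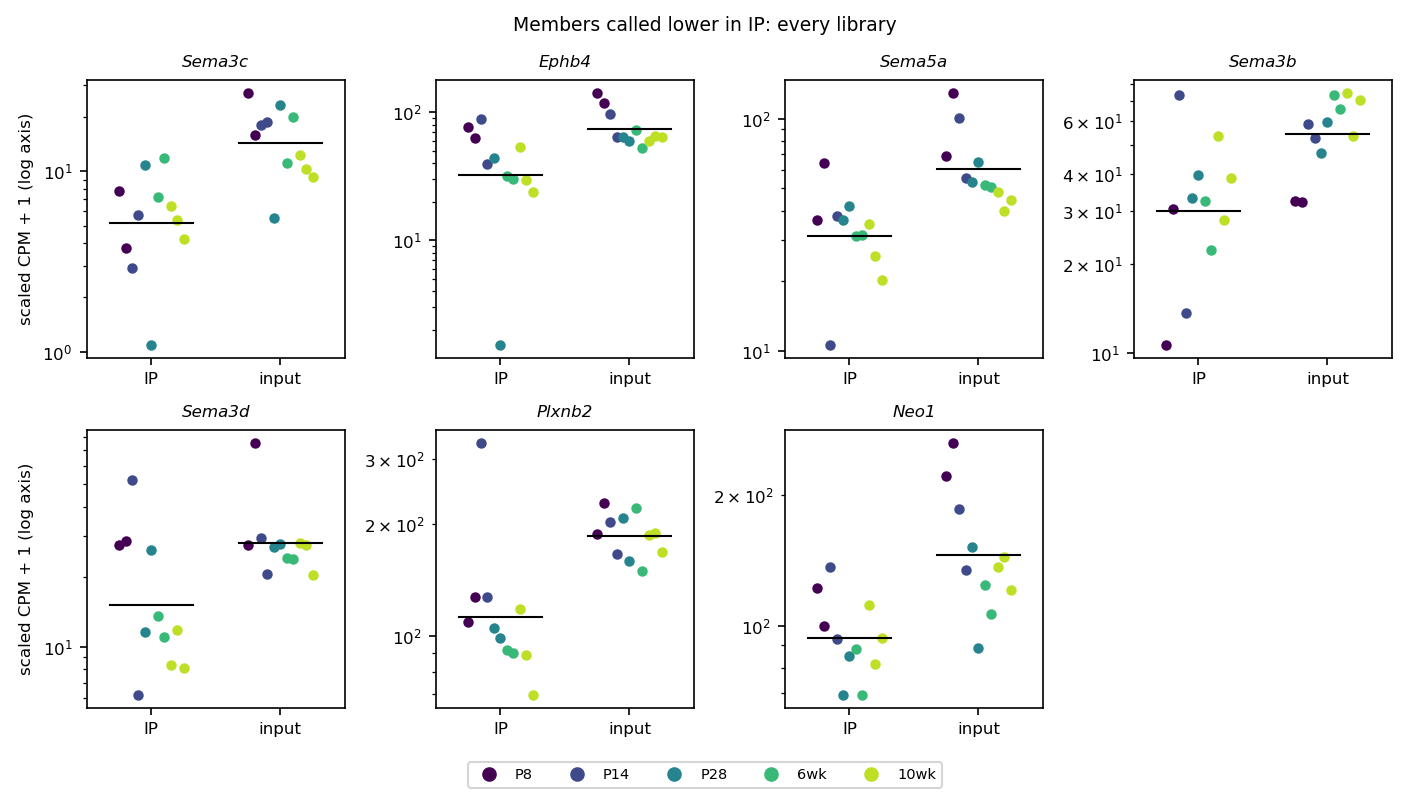
Scaled CPM + 1 on a log axis in every IP and input library for the 7 guidance genes called lower in IP; points are libraries coloured by age and black bars are means on the log scale. The single high IP point of Plxnb2 (331 scaled CPM) is P14 replicate 1, a library with a TMM factor of 0.615. The low IP point of Ephb4 (0.517) is P28 replicate 2.

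Within every one of the 5 ages, all IP libraries exceeded all input libraries for 9 of the 68 genes (13.2%; 4.44% of all genes tested), and lay below them for 1 (1.47%; 6.67% of all genes tested). The 9 were Plxnd1, Plxna1, Epha4, Sema4b, Sema4c, Sema4d, Sema4f, Sema6b and Sema6d, of which 4 are class 4 semaphorins, 2 are class 6 semaphorins and 2 are plexins. With CPM as deposited, without rescaling, 23 genes were higher and 2, Sema3c and Ephb4, were lower, and the calls of Sema3b, Sema3d, Sema5a, Plxnb2 and Neo1 were lost. Over all genes, 3804 were higher and 4333 lower of 20195 tested with rescaling, against 3747 and 2340 of 18737 without it. The share of calls that were higher was 46.7% with rescaling and 61.6% without it.

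Genes downstream of the receptors were called in both directions, as were all genes tested (18.8% higher in IP and 21.5% lower). Of 51 tested mediators, 12 were higher in IP and 9 lower (median log2 change 0.14). The largest increases were those of Rgs3, a regulator of G-protein signalling that binds B-type ephrins (1.20), the kinase Fes (1.17) and Mical3, of the plexin-binding MICAL enzymes (1.14). The largest decreases were those of the actin-severing protein cofilin, Cfl1 (-1.68), and of the small GTPases Rhoa (-1.63) and Rac1 (-1.33). Of 37 tested genes for other cues and adhesion molecules, 8 were higher and 11 lower (median -0.01). Neither list was tested against the shares over all genes. Lrig3, a leucine-rich repeat membrane protein (2.29), Dscaml1, an adhesion molecule of the immunoglobulin family (1.67), and Vangl2, a planar polarity protein (1.27), led the increases. The chemokine receptor Cxcr4 (-1.54) and the adhesion molecules Alcam (-1.38) and Cntn1 (-1.26) led the decreases.

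Of the 26 guidance genes higher in IP, 9 carried a match to the let-7 seed in their 3' untranslated region. Epha7, Epha4, Sema6d and Efna3, also among the 8 with the largest increases, carried none. The let-7 microRNAs are abundant in differentiating cells and pair with messenger RNAs through bases 2 to 8. The mature let-7a sequence (RefSeq, chr13:48538239-48538260, GRCm38.p6, minus strand) and 30-base windows of 4 guidance genes with large increases (GENCODE M21, GRCm38) are shown for the shared letters. Capitals mark the seed in let-7a and the heptamer CTACCTC that pairs with it.
mmu-let-7a-5p: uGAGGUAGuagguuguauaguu
Sema4c, chr1:36549457-36549486, minus strand: taacttttgcacaggcaccagCTACCTCag
Sema4f, chr6:82911939-82911968, minus strand: atctgtaaagtggggatatacCTACCTCag
Plxnd1, chr6:115955368-115955397, minus strand: aggtggccatatcccagaacaCTACCTCat
Plxna2, chr1:194815220-194815249, plus strand: ggcacttctgtgtctgatgttCTACCTCtt

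The heptamer, searched on the sense strand of the longest annotated 3' untranslated region of each gene, was found in 14 of the 68 guidance genes (20.6%) and in 1583 of 15359 protein-coding genes tested (10.3%). It was present in 9 of the 26 guidance genes that were higher in IP (34.6%), in 0 of the 7 that were lower and in 5 of the 35 not called. Over all protein-coding genes the shares were 22% of those higher, 5.04% of those lower and 8.37% of those not called. The other 5 guidance genes higher in IP with a match were Sema4b, Sema4g, Plxna4, Nrp2 and Unc5a. Those with a match that were not called were Ephb2, Ntn1, Ntn5, Plxnc1 and Sema3f. Regions that held the heptamer had a median length of 1503 bases and the others 1730 among guidance genes. Over all genes the medians were 2327 and 1048 bases. By call, the medians over all genes were 2026 bases for those higher, 790 for those lower and 1073 for those not called. Among guidance genes they were 1469, 2512 and 1733 bases. The part of region length in the shares was not tested. These shares are descriptions with no test, and the match of 7 letters does not show that a microRNA binds there.

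**Figure D4:**
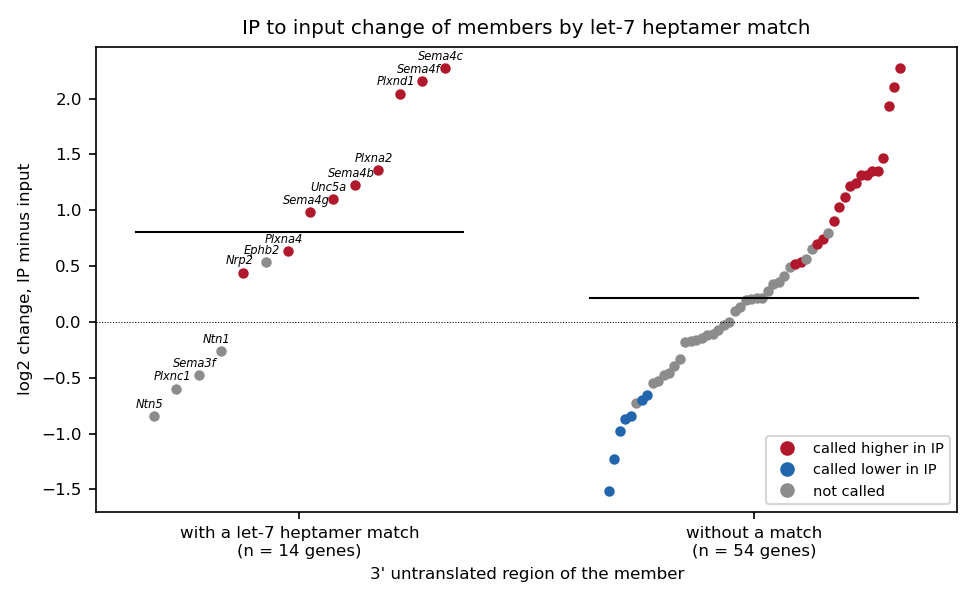
Log2 change of IP minus input (limma, vertical axis) for guidance genes with and without the let-7 heptamer in the longest annotated 3' untranslated region; points are genes coloured by call and black lines are medians. The median is 0.81 for the 14 genes with a match and 0.21 for the 54 without.

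At 6 and 10 weeks against P8 and P14, 0 of the 68 genes were higher in IP (3.69% of all genes tested) and 11 (16.2%) were lower (4.87% of all genes tested, and 8.56% in either direction). The 11 were Nrp1, Ntn4, Efnb1, Epha7, Sema3f, Efna1, Sema4d, Efnb2, Sema4c, Plxnb2 and Nrp2, and so included both neuropilins and 2 of the 3 B-type ephrins. The adult and young IP libraries did not overlap for 8 genes with lower adult values (4.1% of all genes tested). The same held for 1 gene with higher adult values, Plxna3 (4.01% of all genes tested). Plxna3 had 350 and 0 reads in IP at P8 and 10 and 129 at P14.

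Nrp1, co-receptor of class 3 semaphorins and of vascular growth factor, had 41.5 and 65.5 scaled CPM in IP at 6 weeks and 16.2, 23.8 and 19.3 at 10 weeks, against 109 and 157 at P8 and 414 and 103 at P14. The adult and young values did not overlap, and the log2 change was -2.32 ± 0.41 (limma adjusted p = 0.00116). In input Nrp1 changed by -1.33 (limma adjusted p = 0.0722).

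Ntn4 had 92.1 and 93.9 scaled CPM in IP at 6 weeks and 21.7, 55.1 and 47.2 at 10 weeks, against 251 and 236 at P8 and 271 and 133 at P14. Again the 2 sides did not overlap (log2 change -1.83 ± 0.28, limma adjusted p = 0.000354). It fell in input too, where it had 61.3 and 54.6 at 6 weeks and 46.0, 60.8 and 50.4 at 10 weeks, against 127 and 123 at P8 and 134 and 79.4 at P14 (log2 change -1.04 ± 0.28, limma adjusted p = 0.0352). The input call was lost in 10 of 30 alternative settings, among them without P14 input replicate 1 (-0.85, limma adjusted p = 0.22).

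The ephrin Efnb1 had 8.74 and 9.26 scaled CPM in IP at 6 weeks and 14.5, 11.1 and 7.24 at 10 weeks, against 21.7 and 27.8 at P8 and 55.2 and 17.2 at P14 (log2 change -1.41 ± 0.37, limma adjusted p = 0.0191). The sides did not overlap, but without P14 IP replicate 1 the change was -1.01 (limma adjusted p = 0.111). Epha7 had 257 and 214 in IP at 6 weeks and 72.2, 239 and 185 at 10 weeks, against 431 and 430 at P8 and 720 and 373 at P14. These did not overlap either, at a log2 change of -1.34 ± 0.29 (limma adjusted p = 0.0057), or -1.10 without P14 IP replicate 1 (limma adjusted p = 0.0518). Sema3f had 20.7 and 17.0 in IP at 6 weeks and 40.3, 16.6 and 28.2 at 10 weeks, against 64.9 and 66.1 at P8 and 60.3 and 33.5 at P14. Its sides overlapped in 1 library, 10-week replicate 1, and the log2 change was -1.24 ± 0.36 (limma adjusted p = 0.0339), a call lost in 11 of 30 alternative settings.

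The count of 11 moved when single libraries were left out. It was 7 without P8 IP replicate 1, 4 without P8 IP replicate 2, 3 without P14 IP replicate 1, 21 without P14 IP replicate 2, 4 without either 6-week IP library and 6 without 10-week IP replicate 3. Shares of all genes called without those libraries are not given here, so the counts show only how far the number moved. Scaling also moved the count of 11. With CPM over gene reads without Gm42418 and mitochondrial genes, 4 guidance genes were lower and 3, Sema4f, Unc5a and Plxna3, were higher. With that scaling 79.6% of the calls over all genes were higher, against 43.1% with TMM scaling. With CPM as deposited only Nrp1 was called, and Nrp1 was the 1 gene whose call was held in all 30 alternative settings. Other cell markers moved with age in the same IP libraries. The 7 bone and cartilage markers, of which 6 fell, summed to 137 to 249 scaled CPM in adult IP and 3319 to 21373 in young IP. The 8 fibrocyte and mesenchyme markers, of which 5 fell and 1 rose, summed to 2672 to 4599 in adult IP and 5949 to 13289 in young IP. The 10 neuronal markers, of which 6 rose, summed to 881 to 1752 in adult IP and 136 to 1365 in young IP. The 10 endothelial and pericyte markers, of which 2 fell, summed to 450 to 701 in adult IP and 616 to 1431 in young IP. The 10 outer hair cell markers, of which 2 fell, summed to 440 to 1342 in adult IP and 773 to 1532 in young IP. The 8 supporting cell markers, of which 3 fell and 1 rose, summed to 1002 to 1658 in adult IP and 1154 to 2803 in young IP. Of the other lists, 1 macrophage marker fell and 1 Schwann cell and 1 strial marker rose. Reads in no annotated feature made up 23.0% to 47.7% of adult IP libraries and 20.2% to 37.9% of young IP libraries. No marker of these lists was at 0 in all libraries, and the part of the other cells and of these reads in the guidance values was not tested.

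In input, 1 guidance gene was higher at 6 and 10 weeks than at P8 and P14 (1.47%; 2.71% of all genes tested) and 3 were lower (4.41%; 1.91% of all genes tested, and 4.62% in either direction). The adult and young input libraries did not overlap for 3 genes with higher adult values, Unc5a, Sema3e and Dcc (7.39% of all genes tested). The same held for 9 with lower adult values (6.76% of all genes tested). Reads of Unc5a in input were 1 and 0 at P8 and 145 and 108 at P14. Those of Dcc were 18 and 0 at P8 and 1 and 1 at P14. Sema3e, the secreted ligand of Plxnd1, had 42.9 and 37.1 scaled CPM in input at 6 weeks and 57.2, 37.2 and 42.5 at 10 weeks, against 5.53 and 13.7 at P8 and 7.97 and 21.8 at P14. The sides did not overlap (log2 change 1.87 ± 0.44, limma adjusted p = 0.0134). In IP Sema3e changed by 0.90 (limma adjusted p = 0.212).

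Ephb3 had 28.6 and 24.3 scaled CPM in input at 6 weeks and 23.8, 22.5 and 22 at 10 weeks, against 70.8 and 62.0 at P8 and 72.1 and 54.1 at P14 (log2 change -1.36 ± 0.30, limma adjusted p = 0.00843). Unc5b had 35.5 and 36.8 in input at 6 weeks and 20.3, 15.6 and 20.2 at 10 weeks, against 65.1 and 72.2 at P8 and 47.4 and 49.0 at P14 (log2 change -1.12 ± 0.26, limma adjusted p = 0.0134). Neither overlapped between the sides. No guidance gene was called for input without P14 input replicate 1 or without 6-week input replicate 2, 1 was called without 6-week input replicate 1 and 2 without either P8 input library. Counts of 7 were reached without either P14 IP library or either P28 IP library. The count was 8 with DESeq2 and 18 with only the 9 input libraries compared in the fit. Shares of all genes called under these settings are not given here. In input 6 of 7 bone and cartilage markers fell, 4 of 8 fibrocyte markers fell and 1 rose, and 6 of 10 neuronal markers rose. Of the endothelial and outer hair cell lists 2 of 10 markers each fell, of the supporting cell list 1 fell and 1 rose, and 1 Schwann cell and 1 strial marker rose. Their part was not tested.

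**Figure D5:**
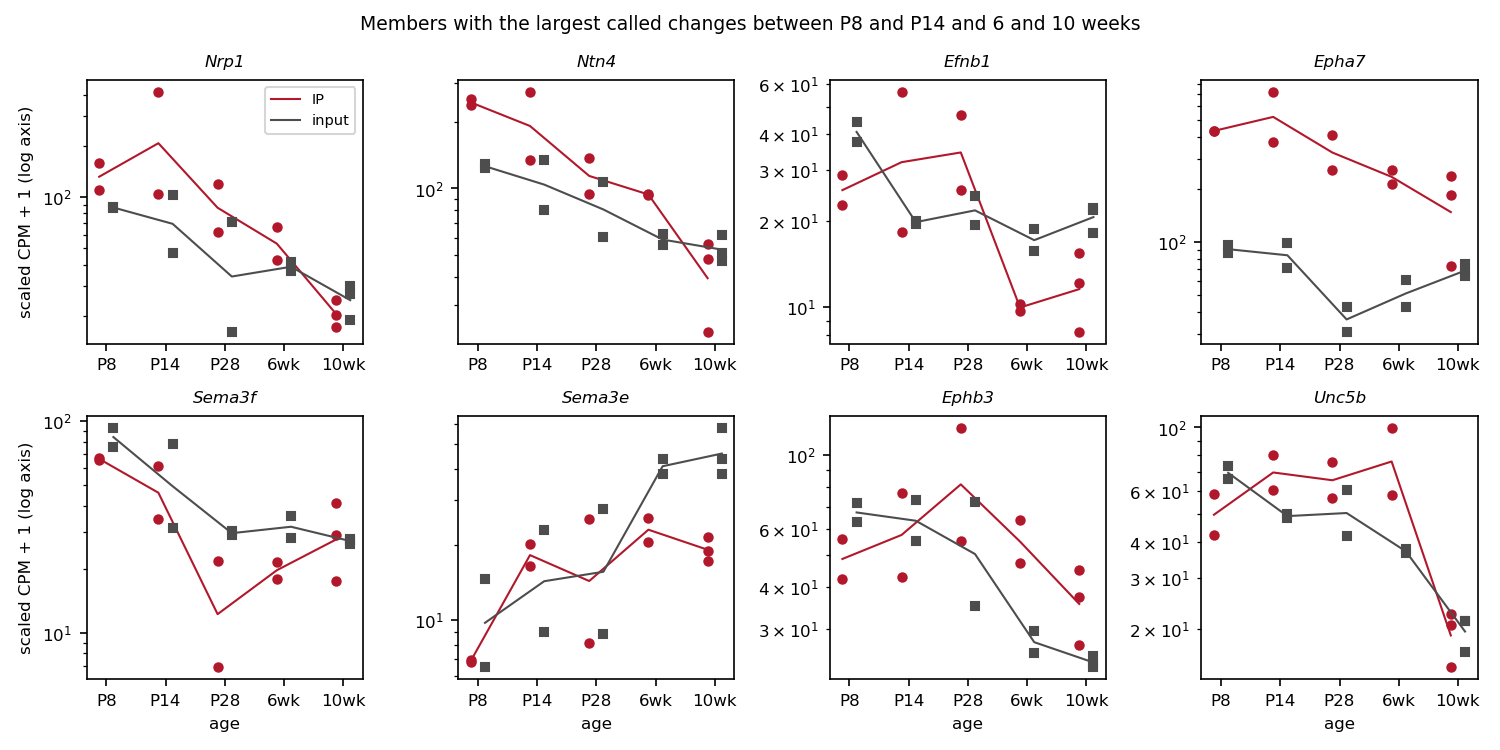
Scaled CPM + 1 on a log axis by age in IP (circles) and input (squares) for 8 guidance genes with the largest called age changes in either fraction; points are libraries and lines join means on the log scale. Nrp1 and Ntn4 are lower in IP at 10 weeks (16.2 to 23.8 and 21.7 to 55.1 scaled CPM) than at P8 (109 to 157 and 236 to 251), and Sema3e in input is higher.

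Whether the difference between IP and input itself changed from P8 and P14 to 6 and 10 weeks was tested as an interaction. No guidance gene passed in limma (0.0248% of all genes tested were higher, 0.0446% lower and 0.0693% either), in edgeR's quasi-likelihood test or in DESeq2, and 6 had an unadjusted p under 0.05 in limma. Without P14 IP replicate 2, 4 genes were called, all with a lower enrichment at 6 and 10 weeks. The fall of the 11 genes in IP was therefore not shown to differ from the change of the same genes in input. Of the mediators, 3 of 51 rose and 3 fell with age in IP, and of the other cues and adhesion molecules 3 of 37 rose and 4 fell (3.69% and 4.87% of all genes tested). None of either list passed the interaction test. The actin-binding gene Ablim3 rose by 1.43 in IP and 0.91 in input, and the axonal adhesion molecule Cntn2 by 2.71 in IP and 1.64 in input. On the log2 scale Slitrk6 fell by 2.16 and Vangl2 by 1.66 in IP. Their changes in input were -0.53 and -0.55 (limma adjusted p = 0.823 and 0.3). For Vangl2 the interaction had a limma adjusted p of 0.342. Of the mediators, Gipc1 (-1.31), Evl (-1.14) and Nck2 (-0.84) fell in IP. In input they changed by -1.01, -1.06 and -0.73 (limma adjusted p = 0.0522, 0.0391 and 0.0644). Gas1, of the other cues and adhesion molecules, fell by 1.31 in IP and 1.20 in input.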

How the data were processed

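RNA of 11 IP and 11 input libraries was sequenced from directional libraries, per the labels' protocols. Per the submitters' processing notes, the aligner was TopHat and the build GRCm38. The counting tool and its strand setting were not given in the sources used here, so reads of overlapping, antisense and near-identical genes may be mixed. The authors deposited CPM per gene, scaled to all reads of each table, including 5 entries that name no gene, which took 32.9% to 72.3% of reads and were left out. All values (100%) were whole multiples of 1 read within 0.01, so reads were recovered, and edgeR 4.0.16 (33 members called over all ages) and DESeq2 1.42.0 (36) were run on them as alternatives. limma 3.58.1 in R 4.3.3 was fitted with a trended prior to log2(TMM-scaled CPM + 1) of 20195 genes that reached a scaled CPM of 1 in 2 or more libraries, with 1 mean for each of 10 groups, two-sided, and all 68 members passed this filter. The 4 comparisons were IP against input (equal weight to 5 ages), 6 and 10 weeks against P8 and P14 in each fraction, and their interaction; P28 entered the fit only. The design text gives biological duplicates or triplicates, on which p-values rest, and names P21 where the labels name P28, which were followed. Replicate numbers entered an alternative as a block. Scripts were tested on simulated data.

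The members, the gene lists and the tests were chosen with earlier results of these data known. Values per library are given for called members with the 8 largest changes each way over all ages and 5 each way by age, where the mean scaled CPM of the higher side was 2 or more, and for 1 uncalled member of each family with no call. Read depth alone leaves little counting error except for genes near 0 reads, but replicate libraries differed by far more than that. Over genes well above 0 reads in both libraries, chi-square per degree of freedom between replicates was 18.1 to 2310. Single libraries also lost genes, as in P28 IP replicates 1 and 2, where Ephb4 had 766 and 12 reads and Slit3 650 and 2.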

Additional observations from a re-analysis of the deposited data

How the results depend on the processing

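For IP against input, the count of 33 called members stayed within 1.5 times under all 30 alternatives (25 with CPM as deposited, 36 with DESeq2, 30 to 39 with 1 library left out), and 22 members were called in every one. With a replicate block it was 33, and 0 for the interaction, so the block changed no count. The labels give IP and input the same numbers without saying what these share, and deviations of same-numbered libraries correlated at 0.04 to 0.292, above 0.1 at 6 and 10 weeks only. At 10 weeks all 3 IP and all 3 input libraries correlated best with their own number, a hint from the data, not the design. Counts by age were less stable. For IP at 6 and 10 weeks against P8 and P14 (11), the count was 1 with CPM as deposited, 7 with CPM over gene reads without Gm42418 and mitochondrial genes (3 higher, 4 lower), 6 without the 3 libraries with fewest genes, 7 with only the libraries compared in the fit, and 3 to 21 with 1 library left out. For input (4), it was 1 with CPM as deposited, 8 with DESeq2, 18 with only the libraries compared and 0 to 7 with 1 library left out. For the interaction (0), it was 0 to 4 with 1 library left out. Calls over all genes moved with the setting too. For IP by age 746 were higher and 983 lower of 20195, against 504 and 139 of 18737 with CPM as deposited. Over gene reads they were 1757 and 451 of 20837. Shares of all genes called are not given for the other settings, so those counts show only how far the number of members moved. The causes were not tested. CPM as deposited moved the median of all genes by 0.13 over all ages, 0.29 for IP by age and 0.42 for input by age on the log2 scale, against 0.00, 0.07 and 0.05 after rescaling. Calls by age were 43.1% higher in IP and 58.7% in input after rescaling, against 78.4% and 84.9% as deposited and 79.6% and 72.8% over gene reads. No named member reversed its direction. Depth limits what can be said of Robo3, Epha6, Slit1 and Dcc.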
